A study of Mus musculus with 8 samples.

Results

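The granzyme B-to-G cluster comprised Gzmb, Gzmc, Gzmd, Gzme, Gzmf and Gzmg, 6 of the 27998 genes in the deposited list, and its members were taken by symbol, with earlier results of these data known. In GRCm38.p6 these genes lie on the minus strand of chromosome 14 within 145 kb, from Gzme at chr14:56117619-56120625 through Gzmd at chr14:56129556-56132603, Gzmg at chr14:56156581-56159579, Gzmf at chr14:56205263-56211407 and Gzmc at chr14:56231397-56241647 to Gzmb at chr14:56258836-56262334. All 6 had UMIs in gated CD8 T cells.

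Granzymes are serine proteases that cytotoxic lymphocytes store in granules and release together with perforin onto target cells. Granzyme B cleaves after aspartate and triggers caspase-dependent death of the target cell, and it is made by CD8 T cells, NK cells and some regulatory T cells. Gzmc to Gzmg, also called orphan granzymes, are rodent neighbours of Gzmb that are known to be induced late or under strong stimulation in T cells and NK cells, and their substrates are less well described.

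Mice of the C57BL/6 strain carried B16-OVA melanomas, which express ovalbumin, and, apart from the non-treated ones, received adoptive cell transfer (ACT) of OT1 CD8 T cells, whose receptor recognises an ovalbumin peptide, with no lymphodepletion. OT1 cells were untransduced, or were transduced to secrete a PD-1 decoy (PD1d) with either IL-2v, an IL-2 variant that does not bind CD25, or IL-33, an alarmin. The PD1d/IL-2v/IL-33 group received PD1d/IL-2v cells and PD1d/IL-33 cells in a 1:1 mix, and tumors are named by the cells infused. Tumors were pooled per condition, CD45+ cells were sorted with enrichment for CD8+ cells, and single cells were profiled with a 5′ assay. The 8 libraries came from untransduced tumors (day 5 and day 12), PD1d/IL-2v tumors (day 12), PD1d/IL-33 tumors (day 12), PD1d/IL-2v/IL-33 tumors (day 5, day 12 and day 26) and non-treated tumors (day 5). The infused OT1 cells and the CD8 T cells of the host were not told apart here.

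Each condition and day had 1 library, so that no difference between conditions has a replicate check, and the 95% intervals given in parentheses cover counting error only. The libraries held 400 to 3700 barcodes and 1387032 to 24917112 unique molecular identifiers (UMIs, each a captured RNA molecule counted once). After the cell filter 12828 of 15700 cells remained, and in 190 of them the barcode also occurred in another library. The libraries carried 5 identifiers, and what these stand for is not stated in the sources used here. Of the libraries compared below, PD1d/IL-2v and PD1d/IL-33 tumors on day 12 shared an identifier. In every other comparison, both at day 5 and across the days included, the 2 libraries carried different identifiers. If these mark batches, batch and condition or day cannot be told apart there. No doublet caller was run. Gates on marker UMIs left out cells that met more than 1 gate (2 cells). Most gates exclude one another by their markers, so that this number does not measure doublets.

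The gates held 5039 CD8 T cells (494 and 41 in untransduced tumors on day 5 and day 12, 557 in PD1d/IL-2v, 364 in PD1d/IL-33, 499, 731 and 2277 in PD1d/IL-2v/IL-33 at day 5, day 12 and day 26, and 76 in non-treated tumors). They also held 2228 NK cells, 1076 T cells without Cd4 or Cd8 UMIs, 795 CD4 T cells, 601 Tregs and 185 DCs, while 2434 cells met no gate. Listed markers of each type were then summed in CPM, counts scaled to a total of 1000000 UMIs. T cell markers came to 2073 CPM in the CD8 T gate and Treg markers to 5747 CPM in the Treg gate, while CD4 T cells held Treg markers at 1208 CPM and CD4 markers at 965 CPM. DC markers came to 1626 CPM in gated DCs, where 7 of 7 were found in at least 5% of cells, but NK markers came to 1833 CPM there and to 2603 CPM in macrophages, nearly all of it Tyrobp (1826 and 2600 CPM), a signalling chain that myeloid cells also use. NK markers summed to 4024 CPM in the NK gate and to 230 CPM in the CD8 T gate, where 3 of the 4 were found in at least 5% of cells. These 4 were Klre1, Klra8, Tyrobp and Eomes, and Eomes is also among the transcription factors compared in CD8 T cells below. The later split of CD8 T cells by an NK marker used another set. T cells without Cd4 or Cd8 UMIs also held NK markers, at 1073 CPM.

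Sequences upstream of the starts are shown because the 6 genes share a locus while Gzmb and the other 5 differed in these libraries, and because the upstream sequence shows how alike Gzmc to Gzmg are. The 150 bases before the start that RefSeq gives each gene are printed 5′ to 3′ on the minus strand of GRCm38.p6. Capitals mark TGTGGT, the core bound by RUNX factors, TGACGTCA, the cyclic AMP response element (CRE), and TGANTCA, the AP-1 element. The windows lie at chr14:56262335-56262484 for Gzmb, chr14:56234658-56234807 for Gzmc, chr14:56132594-56132743 for Gzmd, chr14:56120626-56120775 for Gzme, chr14:56211408-56211557 for Gzmf and chr14:56159580-56159729 for Gzmg. The window of Gzmc lies inside its annotated span, since the start in the RefSeq table falls within it, and that of Gzmd overlaps its span by 10 bases.
Gzmb: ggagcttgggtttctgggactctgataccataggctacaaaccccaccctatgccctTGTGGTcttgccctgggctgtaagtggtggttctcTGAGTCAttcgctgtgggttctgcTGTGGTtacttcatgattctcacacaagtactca
Gzmc: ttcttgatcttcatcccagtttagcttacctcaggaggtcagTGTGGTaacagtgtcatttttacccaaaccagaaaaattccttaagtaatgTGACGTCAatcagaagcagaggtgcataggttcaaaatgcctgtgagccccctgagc
Gzmd: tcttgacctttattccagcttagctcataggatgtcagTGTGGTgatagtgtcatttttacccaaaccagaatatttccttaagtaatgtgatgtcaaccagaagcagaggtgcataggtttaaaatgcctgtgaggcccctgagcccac
Gzme: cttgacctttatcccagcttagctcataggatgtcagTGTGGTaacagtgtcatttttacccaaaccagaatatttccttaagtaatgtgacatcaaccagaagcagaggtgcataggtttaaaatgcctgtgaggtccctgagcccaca
Gzmf: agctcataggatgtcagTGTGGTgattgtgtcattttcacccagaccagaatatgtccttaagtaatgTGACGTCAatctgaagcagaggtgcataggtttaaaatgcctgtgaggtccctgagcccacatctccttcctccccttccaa
Gzmg: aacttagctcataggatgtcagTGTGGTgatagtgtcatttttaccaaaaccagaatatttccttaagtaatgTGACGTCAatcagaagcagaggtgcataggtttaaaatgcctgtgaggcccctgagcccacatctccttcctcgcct

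All 6 windows held TGTGGT, a motif that was found on either strand in the 250 bases before the start of 14.0% of 32851 promoters. The full CRE was present in Gzmc, Gzmf and Gzmg, beginning 57, 82 and 77 bases upstream of the start, against 1.55% of all promoters. At the aligned place Gzmd and Gzme each carried 1 substitution, C4T and G5A, with positions counted from 1 at the 5′ end of the CRE. Gzmb held no CRE but held TGAGTCA, an AP-1 element (6.75% of promoters), and TCACAC, the T-box motif, searched on both strands (12.3% of promoters), neither of which was found in the other 5. The STAT motif TTCNNNGAA was found in 0 of the 6 windows and in 7.02% of promoters. These matches describe letters in a window and are not evidence of binding.

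Over 250 bases the promoters of Gzmc to Gzmg were 71.5–94.8% identical to one another in 10 pairs, whereas Gzmb was 44.6–50.2% identical to them in 5 pairs. Coding sequences were 72.6–94% identical within Gzmc to Gzmg and 67.9–76.8% between Gzmb and the others. Reads are therefore open to being split between paralogs in counting. Of all coding stretches of 91 bases, only those of Gzmd and Gzme were shared between members, at 0.897% and 0.893% of their windows, so that Gzmd and Gzme are the least certain of the 6 to be told apart.

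Gzmb was found in CD8 T cells of every library, and its highest level was at day 5 in PD1d/IL-2v/IL-33 tumors. Its level was 499 CPM (479–519) on day 5 and 176 CPM (129–233) on day 12 of untransduced ACT, 732 CPM (710–755) in PD1d/IL-2v, 766 CPM (730–804) in PD1d/IL-33, and 512 CPM (448–583) in non-treated tumors. In PD1d/IL-2v/IL-33 tumors it was at 1839 CPM (1799–1879) at day 5, 1210 CPM (1184–1236) at day 12 and 423 CPM (413–434) at day 26. The intervals of PD1d/IL-2v and PD1d/IL-33 tumors overlapped, as did those of untransduced day 5 and non-treated tumors, while day 5 and day 12 in PD1d/IL-2v/IL-33 tumors lay above all other libraries. A lower sum can come from fewer cells that make a transcript or from less of it per cell, and sums alone cannot tell these apart. The share of CD8 T cells with a Gzmb UMI was 78.8% at day 5 and 72.1% at day 12 in PD1d/IL-2v/IL-33 tumors, 65.7% in PD1d/IL-33, 48.5% in PD1d/IL-2v and 26.8–39.1% in the other 4 libraries. With each cell thinned to 2000 UMIs these shares became 65.5%, 56.4%, 50.3%, 31.2% and 17.1–26.5%. Macrophages, which should lack the gene, had a Gzmb UMI in 18 of 321 cells (5.61%, or 0.623% after thinning), with median depths of 3795–12892 UMIs per library against 5168.5–8453 in CD8 T cells.

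Gzmc to Gzmg followed another order, with the highest sum in CD8 T cells at day 12 in PD1d/IL-2v/IL-33 tumors. The sum of the 5 genes was 2484 CPM (2447–2521) there, against 309 CPM (293–326) at day 5 and 17.1 CPM (15–19.3) at day 26. PD1d/IL-2v tumors gave 638 CPM (617–659). The level was 237 CPM (223–251) and 25.6 CPM (10.3–52.8) in untransduced tumors on day 5 and day 12, 9.61 CPM (5.95–14.7) in PD1d/IL-33 and 8.98 CPM (2.45–23) in non-treated tumors. The last 2 rested on 21 and 4 UMIs and did not differ beyond counting error. At least 1 of the 5 was found in 29.0% of CD8 T cells at day 12 in PD1d/IL-2v/IL-33 tumors (17.0% after thinning), 11.3% in PD1d/IL-2v (5.92%) and 2.2% in PD1d/IL-33 (1.10%). The share in macrophages of all libraries was 8 of 321 cells (2.49%, or 0.623% after thinning). Without thinning the share in PD1d/IL-33 tumors was not above it. Of these macrophages 7 came from PD1d/IL-33 tumors and 158 from PD1d/IL-2v/IL-33 tumors at day 5. The background of the PD1d/IL-33 library itself is therefore not known.

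**Figure D1:**
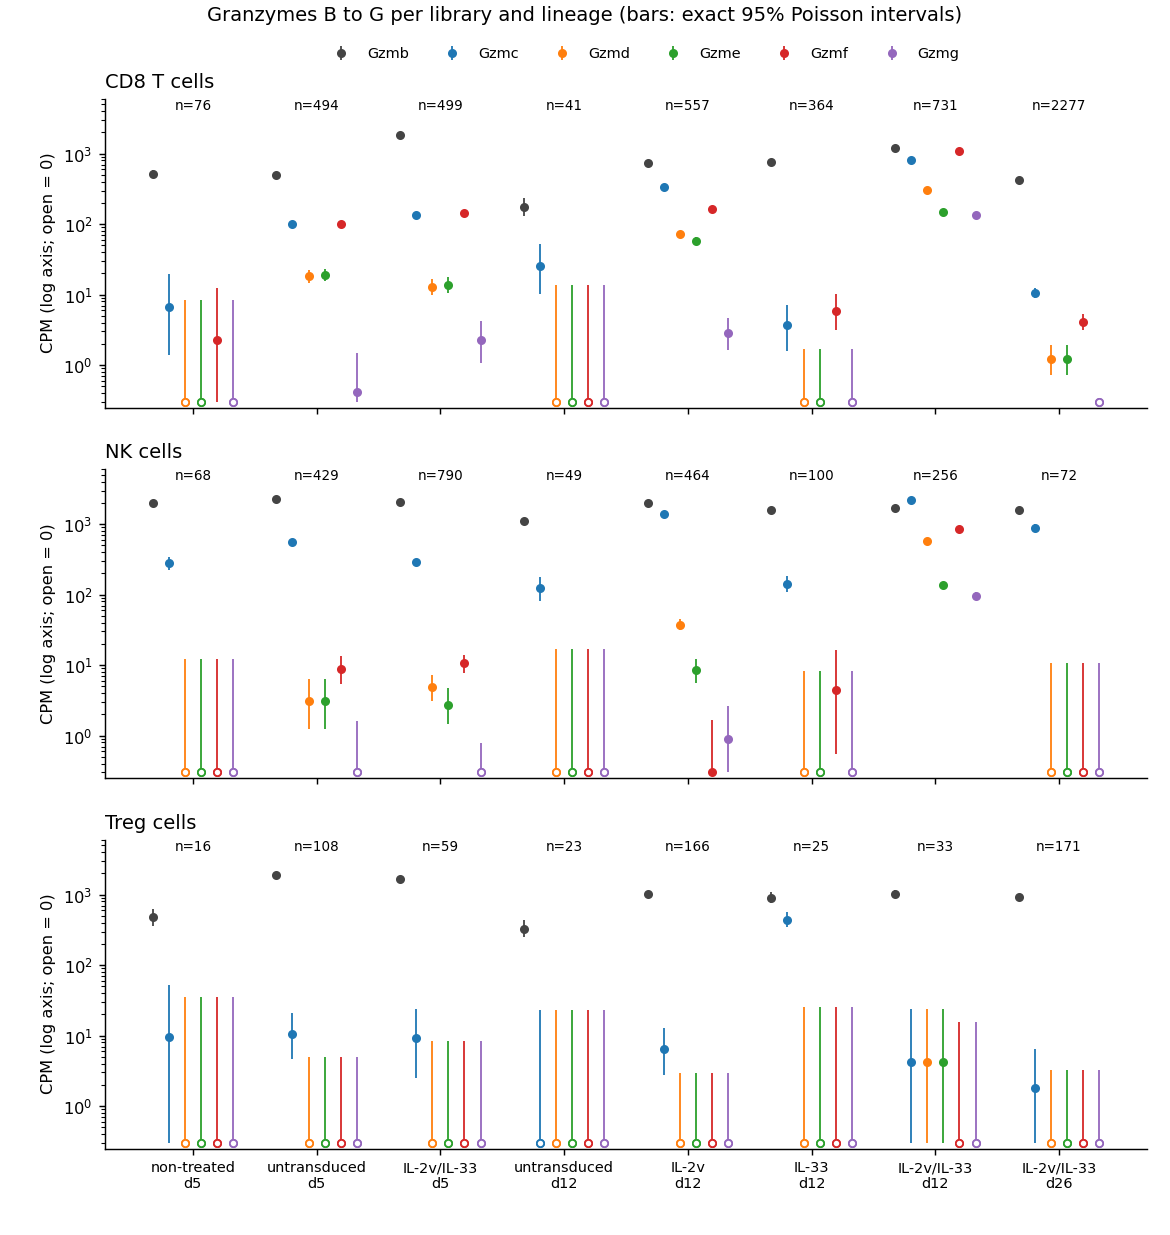
Level of each member in CD8 T cells, NK cells and Tregs by library, in CPM on a log axis, 1 point per library with bars for the 95% counting interval and open markers for 0 UMIs. Gzmb lay between 176 and 1839 CPM in CD8 T cells, whereas Gzmd, Gzme and Gzmg reached 308, 147 and 134 CPM in PD1d/IL-2v/IL-33 tumors on day 12 and were at 0 in PD1d/IL-33 tumors.

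Gzmc was the most widely found of the 5. In CD8 T cells it was at 99.7 CPM and 25.6 CPM in untransduced tumors on day 5 and day 12, 341 CPM (326–357) in PD1d/IL-2v, 3.66 CPM (1.58–7.21) in PD1d/IL-33, 136, 809 and 10.6 CPM in PD1d/IL-2v/IL-33 at day 5, day 12 and day 26, and 6.74 CPM in non-treated tumors. Its levels in PD1d/IL-33 and non-treated tumors rested on 8 and 3 UMIs. Gzmf was at 99.3, 0, 163 and 5.95 CPM in untransduced day 5, untransduced day 12, PD1d/IL-2v and PD1d/IL-33, at 144, 1086 (1061–1111) and 4.10 CPM at the 3 days of PD1d/IL-2v/IL-33, and at 2.25 CPM (1 UMI) in non-treated tumors. At day 12 in PD1d/IL-2v/IL-33 tumors the interval of Gzmf lay above that of Gzmc, while in PD1d/IL-2v tumors the order was the opposite. In the first 1 cell held 1966 of the 7519 Gzmf UMIs, and 109 cells held the gene. In PD1d/IL-2v 1 cell held 309 of 911, and 16 cells held the gene. The intervals leave out this spread between cells, and whether the order rests on a few cells was not tested. A UMI counts a molecule once at its 5′ end, so that these levels are not per kilobase of transcript.

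Gzmd and Gzme, the closest pair by sequence, had like levels in most libraries. Gzmd was at 18.2, 72.8, 12.9, 308 (295–322) and 1.21 CPM in CD8 T cells of untransduced day 5, PD1d/IL-2v and PD1d/IL-2v/IL-33 day 5, day 12 and day 26, and Gzme was at 19.0, 58.0, 13.6, 147 (138–156) and 1.21 CPM. Both had 0 UMIs in untransduced day 12, PD1d/IL-33 and non-treated tumors. Gzmg had 927 UMIs (134 CPM; 125–143) at day 12 in PD1d/IL-2v/IL-33 tumors, and 0 to 16 UMIs in each of the other 7 libraries, at most 2.86 CPM. Of the 6 members, Gzmd, Gzme and Gzmg were thus the ones with no UMI in CD8 T cells from PD1d/IL-33 tumors, where 0 of 364 cells allows a share of cells with a UMI of up to 0.824%, taking 3 cells as the limit of a count of 0; this is no limit on cells that express the gene.

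The comparison of PD1d/IL-2v/IL-33 with PD1d/IL-2v tumors on day 12 set a mix that also held IL-33-secreting cells beside PD1d/IL-2v cells alone. In the 1:1 mix the share of IL-2v-secreting cells was lower as well. To each CPM value 10 CPM were added before the log2 ratio was taken, and genes with at least 50 UMIs in the 2 libraries together were compared. A member could thus reach this minimum through 1 library alone, which favours a call. Counts of members are therefore a description only, and for such members the background is not like for like. In CD8 T cells 5 of the 6 members were higher by a log2 ratio of at least 1, against 1.13% of 9083 genes. The ratios were 1.22 (1.15–1.30) for Gzmc, 1.94 (1.80–2.08) for Gzmd, 1.21 (1.05–1.37) for Gzme, 2.66 (2.57–2.76) for Gzmf and 3.48 (3.28–3.64) for Gzmg. The ratio of Gzmb was 0.72 (0.66–0.77), and the median of all genes was -0.10. The sum of Gzmc to Gzmg gave 1.94 (1.89–2.00), which became 1.2 without the 5% of cells with most UMIs in each library and 4.85 without the CD8 T cells that held an NK marker, described below. The count of members became 3 of 6 without the 5% of cells with most UMIs, and 6 of 6 without the NK marker cells.

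Against PD1d/IL-33 tumors on day 12, again 5 of 6 members were higher in CD8 T cells from PD1d/IL-2v/IL-33 tumors, with a background of 1.34% of 8404 genes. Gzmc gave 5.91 (5.57–6.15) and Gzmf 6.10 (5.76–6.38). If UMIs are taken as independent, Gzmd, Gzme and Gzmg were at least 225-fold, 107-fold and 97.5-fold higher. These bounds put 3 counts in place of the 0 UMIs in PD1d/IL-33. In PD1d/IL-2v/IL-33 tumors, however, 1 cell held 720 of the 2134 Gzmd UMIs. By cells, Gzmd was in 10.4% of CD8 T cells there, against a share of up to 0.824% in PD1d/IL-33. Gzmb gave 0.65 (0.58–0.73), which became 0.30 with a cell filter that stopped at 12000 UMIs and also had other limits on genes and on ribosomal and mitochondrial UMIs. This comparison shares the PD1d/IL-2v/IL-33 library with the one over PD1d/IL-2v tumors, so that the counts of members are not independent.

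Between the conditions with a single cytokine, Gzmb gave a log2 ratio of 0.06 (-0.02 to 0.15) for PD1d/IL-33 over PD1d/IL-2v tumors, and 1.15 (1.01–1.29) without CD8 T cells that held an NK marker, at 727 against 321 CPM. Of the 5 members compared 4 were lower in PD1d/IL-33, against 1.49% of all genes. The ratios were -4.68 for Gzmc and -3.44 for Gzmf. Gzmd and Gzme were at least 53.1-fold and 42.3-fold lower if UMIs are taken as independent. In PD1d/IL-2v tumors Gzmd was in 7 of 557 CD8 T cells (1.26%; 0.507–2.57), with 206 of its 407 UMIs in 1 cell, and Gzme was in 9. The limit of 0.824% in PD1d/IL-33 lies inside the interval of Gzmd, so that its share of cells may not differ. The log2 ratio of the sum of Gzmc to Gzmg was -5.05. These ratios and bounds rested on the NK marker cells. All UMIs of Gzmd and Gzme in PD1d/IL-2v tumors were in such cells, so that without them both genes were at 0 in both libraries, 1 of 3 members was lower, Gzmc at -1.38, and the sum gave -1.52 (-1.95 to -1.03).

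At day 5, 2 comparisons were made. PD1d/IL-2v/IL-33 over untransduced tumors gave 1.86 (1.80–1.93) for Gzmb, the member past the threshold among 5 compared (background 1.7%), and 0.37 for the sum of Gzmc to Gzmg. Single members gave 0.41 for Gzmc, 0.50 for Gzmf and -0.30 for both Gzmd and Gzme. Without the NK marker cells Gzmf gave 2.82 (2.49–3.11), so that 2 of 3 members were higher, and the sum 1.32. This value of Gzmf rested on 321 UMIs in 4 of 341 cells against 20 UMIs in 3 of 305 cells. Untransduced over non-treated tumors at day 5 gave -0.04 (-0.23 to 0.16) for Gzmb, and 4 of 5 members were higher (background 1.43%). In that comparison the ratio of CPM was 14.8 (5.04–72.0) for Gzmc and 44.2 (7.90–1751) for Gzmf, with 3 UMIs and 1 UMI in the non-treated library. Gzmd and Gzme were at least 2.71-fold and 2.83-fold higher if UMIs are taken as independent. In untransduced tumors Gzmd, Gzme and Gzmf were in 5, 9 and 9 of 494 cells, with 62 of 89 Gzmd UMIs in 1 cell. A count of 0 in 76 non-treated cells allows a share of up to 3.95%, above that of Gzmd (1.01%) and Gzme in untransduced tumors. Their shares of cells may therefore not differ. The count was 2 of 3 with the filter of 12000 UMIs or without the deepest 5% of cells, and 1 of 2, Gzmc, without the NK marker cells.

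Across the days of PD1d/IL-2v/IL-33 tumors, the level of Gzmb in CD8 T cells was lower at each later day, while that of the other members was highest at day 12. From day 5 to day 12 Gzmb gave -0.60, and 5 of 6 members were higher (background 0.462%), with 2.49 for Gzmc, 3.79 for Gzmd, 2.73 for Gzme, 2.83 for Gzmf and 3.55 for Gzmg. From day 12 to day 26 all 6 were lower (background 1.64%), with -1.49 for Gzmb, -5.32 for Gzmc, -4.83 for Gzmd, -3.81 for Gzme and -6.28 for Gzmf. Gzmg was at least 663-fold lower if UMIs are taken as independent. Day 26 had 2277 CD8 T cells, the most of any library, and 254 UMIs of Gzmc to Gzmg. Of these UMIs 137 (53.9%) were in 1 cell.

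The makeup of the cluster, as shares of the UMIs of the 6 genes, changed accordingly. In CD8 T cells from PD1d/IL-2v/IL-33 tumors on day 12 the shares were 32.8% Gzmb, 21.9% Gzmc, 8.34% Gzmd, 3.98% Gzme, 29.4% Gzmf and 3.62% Gzmg, of 25580 UMIs. In PD1d/IL-2v tumors Gzmb took 53.4%, Gzmc 24.9% and Gzmf 11.9% of 7656 UMIs. In PD1d/IL-33, day 26 and non-treated CD8 T cells Gzmb took 98.8%, 96.1% and 98.3%. At day 5 it took 67.8% in untransduced tumors and 85.6% in PD1d/IL-2v/IL-33 tumors.

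**Figure D2:**
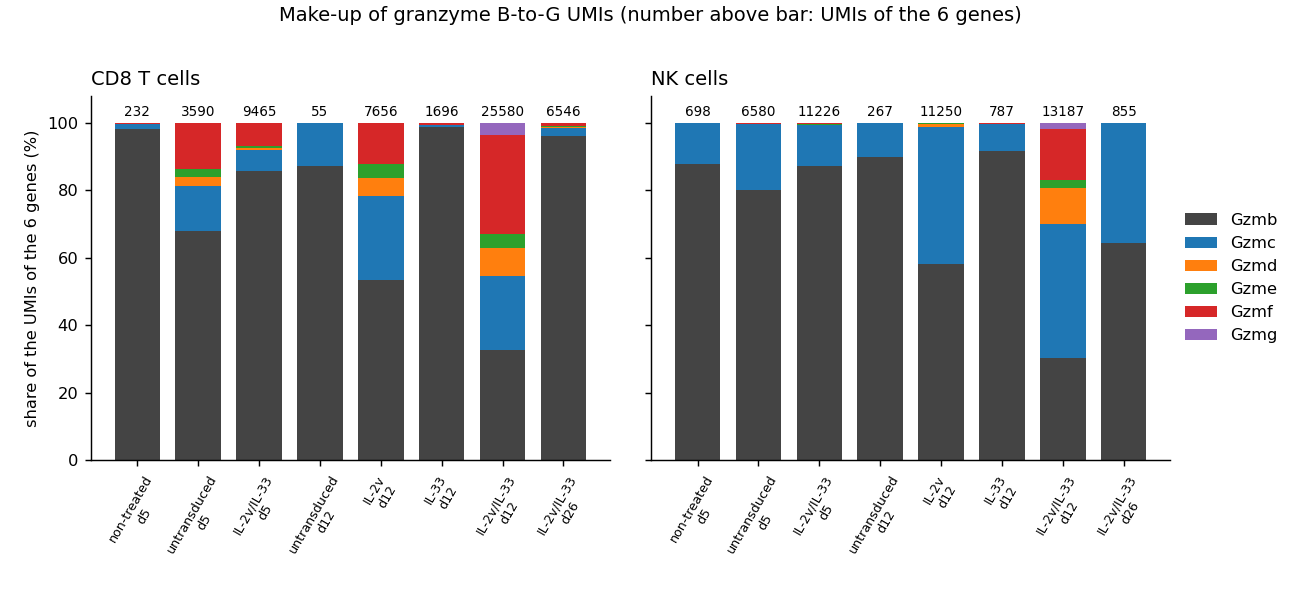
Share of each member among the UMIs of the 6 genes in CD8 T cells and NK cells, 1 stacked bar per library that sums to 100%. In PD1d/IL-2v/IL-33 tumors on day 12 Gzmb took 32.8% in CD8 T cells and 30.4% in NK cells, and Gzmf, at 29.4% and 15.3%, was above its share in the other libraries.

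NK cells, which kill without prior sensitisation, held Gzmb at 1093–2308 CPM in all 8 libraries. The values were 2308, 1093, 1976 and 1611 CPM in untransduced day 5, untransduced day 12, PD1d/IL-2v and PD1d/IL-33, then 2064, 1699 and 1609 CPM at day 5, day 12 and day 26 of PD1d/IL-2v/IL-33, and 2018 CPM in non-treated tumors. The range of the 8 values was narrower than in CD8 T cells, and in each library the level in NK cells exceeded that of CD8 T cells. The comparison of PD1d/IL-2v/IL-33 over PD1d/IL-2v tumors on day 12 gave -0.22 (-0.27 to -0.16) for Gzmb in NK cells, and with TMM scaling 0.033, so that its direction depended on the scaling. The median of all genes in that comparison was -0.20.

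Gzmc was high in NK cells as well, at 562, 123, 1371 (1331–1411) and 143 CPM in untransduced day 5, untransduced day 12, PD1d/IL-2v and PD1d/IL-33, at 289, 2226 (2166–2287) and 892 CPM at the 3 days of PD1d/IL-2v/IL-33, and at 280 CPM in non-treated tumors. NK cells and CD8 T cells of PD1d/IL-2v tumors differed in what else they held. In the NK cells Gzmc made up 4544 of the 4700 UMIs of Gzmc to Gzmg, with 124 UMIs of Gzmd, 28 of Gzme, 1 of Gzmf and 3 of Gzmg, whereas CD8 T cells of the same library had 911 UMIs of Gzmf.

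At day 12 in PD1d/IL-2v/IL-33 tumors all of these genes were found in NK cells, with 583 CPM (553–615) for Gzmd, 137 CPM (122–152) for Gzme, 854 CPM (817–892) for Gzmf and 97.2 CPM (85.0–111) for Gzmg. In the other 7 libraries Gzmf was at most 10.6 CPM and Gzmg at most 0.905 CPM in NK cells. Of the 2013 Gzmf UMIs, 1316 were in 1 cell, and 18 NK cells held the gene.

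Over PD1d/IL-2v tumors, 4 of 6 members were higher in NK cells (background 1.4% of 7430 genes). The log2 ratios were 0.70 (0.64–0.75) for Gzmc, 3.64 for Gzmd and 2.99 for Gzme. The ratio of CPM was 2831 (508–111887) for Gzmf and 107 (36.3–524) for Gzmg, with 1 and 3 UMIs in PD1d/IL-2v. A single NK cell held 544 of the 1374 Gzmd UMIs in PD1d/IL-2v/IL-33, and 1 held 100 of the 124 in PD1d/IL-2v. For Gzme 1 cell held 19 of the 28 UMIs in PD1d/IL-2v. For Gzmg 1 of 10 cells held 97 of the 229 UMIs in PD1d/IL-2v/IL-33. The sum gave 1.45 (1.4–1.5), and 0.25 with the cell filter that stopped at 12000 UMIs, under which 1 of 3 members was higher.

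Over PD1d/IL-33 tumors 5 of 6 members were higher in NK cells (background 1.7%). Gzmc gave 3.87, Gzmb 0.08 (-0.04 to 0.19), and Gzmd, Gzme and Gzmg were at least 87-fold, 20.4-fold and 14.5-fold higher if UMIs are taken as independent. Gzmg was in 3.91% (1.89–7.07) of NK cells of PD1d/IL-2v/IL-33, and 0 of 100 cells in PD1d/IL-33 allows a share of up to 3%. This limit lies inside the interval, so that the shares of cells with Gzmg may not differ. With the filter of 12000 UMIs 2 of 3 were higher. PD1d/IL-33 over PD1d/IL-2v tumors gave -3.17 for Gzmc and -0.29 for Gzmb, with 2 of 3 members lower (background 2.7%), and 1 of 2 with the filter of 12000 UMIs or without the deepest 5% of cells. These ratios rested on 100 NK cells and 66 UMIs of Gzmc to Gzmg in PD1d/IL-33, and the 4 cycling genes listed (Mki67, Top2a, Birc5 and Stmn1) were also all lower there than in PD1d/IL-2v, by a median of -2.15. The part of cell cycling in that result was not tested.

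Over time, NK cells of PD1d/IL-2v/IL-33 tumors were higher at day 12 than at day 5 in 5 of 6 members (background 0.315%), with 2.90 for Gzmc, 5.32 for Gzmd, 3.52 for Gzme and 5.39 for Gzmf. Gzmg was at least 153-fold higher if UMIs are taken as independent. Gzmb gave -0.28. From day 12 to day 26, 5 of 6 were lower (background 3.27%). There Gzmc gave -1.31, Gzmb gave -0.08 (-0.21 to 0.05), and Gzmd, Gzme, Gzmf and Gzmg went to 0 UMIs. They were at least 66.4-fold, 15.6-fold, 97.3-fold and 11.1-fold lower if UMIs are taken as independent. Gzmg was in 10 of 256 NK cells (3.91%) at day 12, and 0 of 72 cells allows a share of up to 4.17%. Its share of cells may therefore not have changed. Day 26 had 72 NK cells, and 134 of their 305 Gzmc UMIs were in 1 cell. With the filter of 12000 UMIs 2 of 3 members were higher at day 12 than at day 5, and 1 of 3 was lower at day 26 than at day 12.

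Tregs, which suppress other T cells, held Gzmb and almost none of the other members. Gzmb was at 1901, 330, 1033 and 908 CPM in untransduced day 5, untransduced day 12, PD1d/IL-2v and PD1d/IL-33, at 1657, 1013 and 921 CPM at the 3 days of PD1d/IL-2v/IL-33 and at 482 CPM in non-treated tumors. The share of Tregs with a UMI was highest at 86.4% and 78.8%, at day 5 and day 12 of PD1d/IL-2v/IL-33. In untransduced day 12, PD1d/IL-33 and non-treated tumors, with 23, 25 and 16 Tregs, a single cell held 50.9%, 62.4% and 68.6% of the Gzmb UMIs. Gzmc was at 0 to 10.7 CPM in 7 of the 8 libraries and at 444 CPM in PD1d/IL-33, where 1 cell held 64 of 65 UMIs. Gzmd and Gzme each had 1 UMI at day 12 in PD1d/IL-2v/IL-33 tumors.

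CD4 T cells without Foxp3 had Gzmb at 771 CPM in PD1d/IL-2v tumors and 551 CPM at day 5 in PD1d/IL-2v/IL-33 tumors, and at 57.1–125 CPM in the other 6 libraries. In PD1d/IL-2v tumors, with 48 CD4 T cells, 1 cell held 115 of the Gzmb UMIs and also 101 of the 104 UMIs of Gzmc to Gzmg. Without it Gzmb was at 388 CPM. Gzmc to Gzmg were otherwise close to 0 in CD4 T cells.

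T cells without Cd4 or Cd8 UMIs had Gzmb at 196–755 CPM and Gzmc at 0–762 CPM, with 529 CPM in untransduced day 5, 762 CPM in PD1d/IL-2v, 0 in PD1d/IL-33, and 151 CPM at day 12 of PD1d/IL-2v/IL-33. Gzmd to Gzmg had 46, 38, 96 and 2 UMIs at day 12 in PD1d/IL-2v/IL-33 tumors and 0 to 3 UMIs in every other library. Gzmc was therefore lower in PD1d/IL-2v/IL-33 than in PD1d/IL-2v in these cells (log2 ratio -2.26), opposite to CD8 T cells. In PD1d/IL-2v 1 of the 189 cells held 455 of the Gzmc UMIs, and without it Gzmc was at 381 CPM.

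DCs gave a Gzmb UMI in 13 of 185 cells (7.03%, or 1.62% after thinning, at median depths of 5789–12922.5 UMIs). In macrophages these shares were 5.61% and 0.623%. Whether the Gzmb UMIs of DCs are background was not tested. Gzmc had 4 UMIs in 4 DCs and Gzmd was found in 0 of 185 cells, which by the same limit allows a share of cells with a UMI of up to 1.62%. Of the few basophils or mast cells gated, 6 of 14 (42.9%) held Gzmb, with 86 UMIs in all.

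Within CD8 T cells the UMIs of Gzmc to Gzmg were concentrated in few cells. At day 12 in PD1d/IL-2v/IL-33 tumors the 10% of cells with most of them held 96.6%, whereas the 10% of cells with most Gzmb held 57.4% of Gzmb. The highest cell had 3557 UMIs of Gzmc to Gzmg, or 20.7% of the sum over CD8 T cells of that library. Cells with at least 100 such UMIs, a limit set after the values were seen, numbered 120 in all libraries and gates, 63 of them at day 12 in PD1d/IL-2v/IL-33 tumors, 23 in PD1d/IL-2v and 0 in PD1d/IL-33.

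In that library 37 of 731 CD8 T cells passed this limit and held 86.0% of the UMIs, and 20 of 256 NK cells held 81.0%. The corresponding 10 CD8 T cells and 9 NK cells of PD1d/IL-2v tumors held 83.9% and 76.3%. Cells past the limit were large, with medians of 20224 UMIs in CD8 T cells and 18536.5 in NK cells of PD1d/IL-2v/IL-33 at day 12. The number of UMIs per positive CD8 T cell was 81.1 there and 56.6 in PD1d/IL-2v, and the share of positive cells was 29.0% against 11.3%, so that both were higher.

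**Figure D3:**
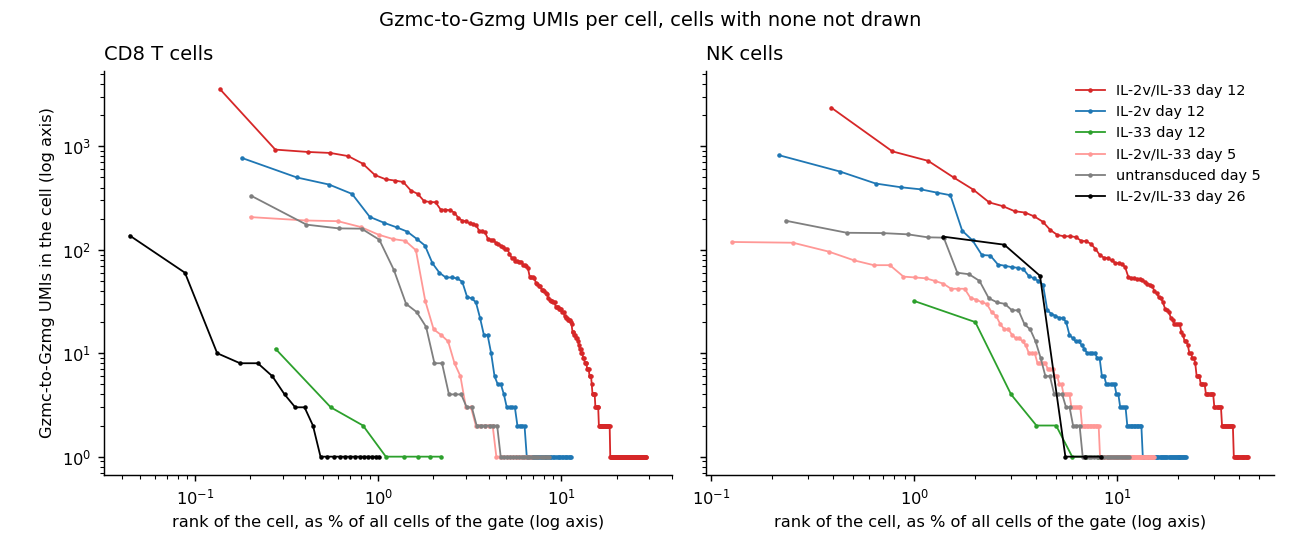
UMIs of Gzmc to Gzmg in single CD8 T cells and NK cells of 6 libraries, ordered from the highest cell, against rank as a percentage of the gate, with both axes on a log scale. The highest CD8 T cell of PD1d/IL-2v/IL-33 tumors on day 12 had 3557 UMIs, and the curve of PD1d/IL-33 tumors stays below 100.

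Gzmb was mostly found without the other 5. At day 12 in PD1d/IL-2v/IL-33 tumors 174 of 731 CD8 T cells held none of the 6, 371 held 1, 90 held 2, 35 held 3, 13 held 4, 18 held 5 and 30 held all 6. Gzmb with none of the other 5 was the pattern of 345 cells (47.2%). Of the cells with Gzmb, 182 of 527 (34.5%; 30.5–38.8) also held at least 1 of Gzmc to Gzmg, compared with 47 of 270 (17.4%) in PD1d/IL-2v and 6 of 239 (2.51%) in PD1d/IL-33. Cells with all 6 numbered 1 in each of untransduced day 5, PD1d/IL-2v and PD1d/IL-2v/IL-33 day 5.

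**Figure D4:**
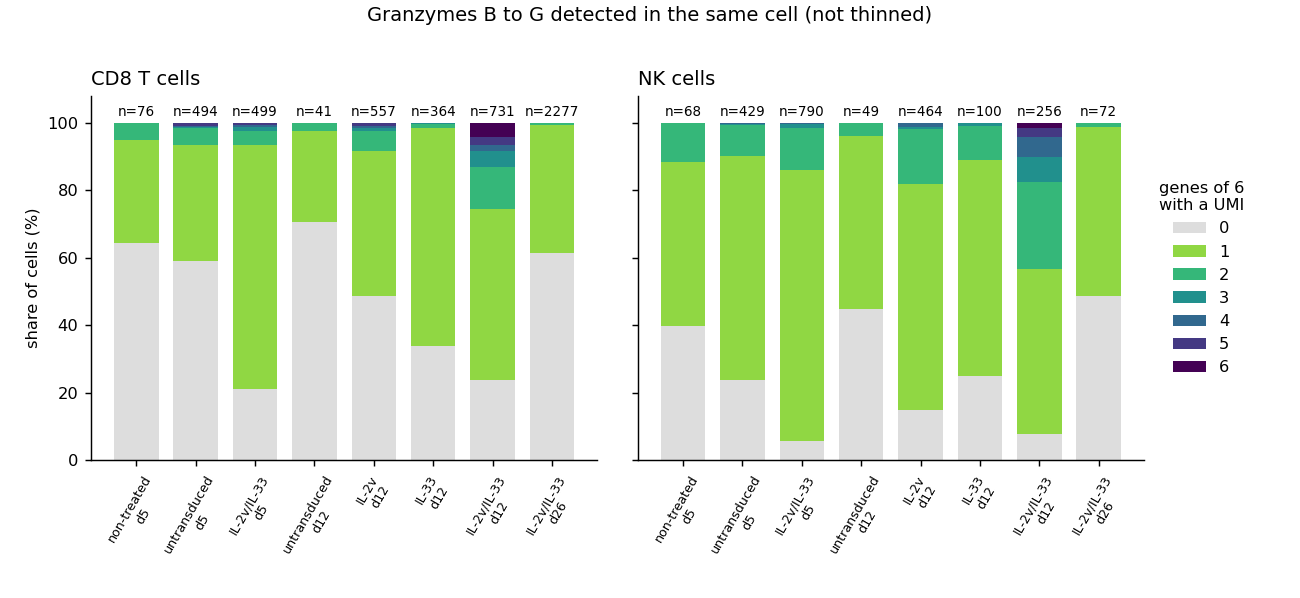
Share of CD8 T cells and NK cells by the number of members with at least 1 UMI, from 0 to 6, 1 stacked bar per library. At day 12 in PD1d/IL-2v/IL-33 tumors 30 of 731 CD8 T cells and 4 of 256 NK cells held all 6, and 174 and 20 held none.

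The rarer members were seldom found alone. In CD8 T cells of that library another of Gzmc to Gzmg was present in 54.7% of cells with Gzmc, 77.1% with Gzmf, 88.2% with Gzmd, 95.1% with Gzmg and 98.2% with Gzme. Gzmd and Gzme shared 54 cells, 9.44 times the number that their separate shares would give, and Gzme and Gzmg shared 33, a ratio of 10.7. For Gzmb with each other member this ratio was 1.24–1.35. Thinning to 2000 UMIs gave 14.0 for Gzmd with Gzme and 1.37–1.69 for Gzmb with the others. In NK cells the ratio was 5.36 for Gzmd with Gzme, 2.22 for Gzmc with Gzmd and 0.985–1.11 for Gzmb with the others. A gene held by most cells, as Gzmb was, cannot reach a high ratio. Its values therefore cannot be set beside those of the rare pairs.

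Across the 731 CD8 T cells, which share 1 library and differ in depth, Pearson's r of log-scaled counts was 0.91 for Gzmd with Gzme, 0.82 for Gzmd with Gzmg, 0.71 for Gzmc with Gzmd and 0.20–0.35 for Gzmb with the other 5. In 256 NK cells Gzmb gave 0.00–0.12 with the other 5 and Gzmd gave 0.79 with Gzme. The part of reads shared between Gzmd and Gzme in their high value was not tested. Gzmb was held by 85.8% of CD8 T cells with any of Gzmc to Gzmg and by 66.5% of the rest.

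CD8 T cells with at least 2 UMIs of Gzmc to Gzmg were then set beside those with 0 in the same library, as a description of 134 and 519 cells of PD1d/IL-2v/IL-33 tumors on day 12. The first were deeper, with a median of 14723.5 UMIs against 7132, so that CPM rather than shares of cells are compared. Gzmb was at 2164 CPM against 797 CPM. In PD1d/IL-2v tumors the corresponding 35 and 494 cells gave 2618 and 494 CPM. In NK cells of PD1d/IL-2v/IL-33 at day 12 Gzmb was at 1753 and 1756 CPM in the 95 and 143 cells, with no difference beyond counting error.

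Of the granule partners, Prf1, which encodes perforin, gave a log2 ratio of 0.84 (0.63–1.06) between these CD8 T cells, Gzmk gave -2.53 (-2.85 to -2.21), Gzmm gave -1.52 (-1.80 to -1.13) and Nkg7 gave -0.15. Gzma gave 0.39, and -0.21 after thinning. The median of 7453 genes was -0.10. Cells rich in Gzmc to Gzmg were thus low in Gzmk, a granzyme of less cytotoxic CD8 T cells, and the same pair gave -0.82 in PD1d/IL-2v tumors.

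Tcf7 and Ccr7, genes of naive and memory T cells, gave -1.92 and -2.61 in the same cells. Among inhibitory receptors Havcr2 gave 1.10 and Pdcd1 0.93, Lag3 gave 0.00, and Tigit gave -1.27. Tox, a factor of exhausted T cells, gave -1.72. Irf8 gave 1.38 and Il2ra, which encodes CD25, 1.13, with 1.19 and 1 in PD1d/IL-2v tumors. Tbx21, Prdm1, Runx3 and Id2, factors of effector fate, gave -0.24, -0.29, 0.13 and 0.03. Mki67 or Top2a was found in 47.8% against 27.6% of cells, and in 14.2% against 12.7% after thinning.

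In NK cells with at least 2 UMIs of Gzmc to Gzmg, Gzma gave -0.92 (-0.96 to -0.87), Prf1 -0.32, Irf8 -0.26 and Il2ra 1.07 against those with 0. Cma1, a chymase gene of the same family locus, was at 3.13 against 92 CPM, a log2 ratio of -2.96 (-3.28 to -2.43). The Cma1 UMIs of NK cells were in 90 cells of PD1d/IL-2v tumors, of which 0 had at least 2 UMIs of Gzmc to Gzmg, and at day 12 in PD1d/IL-2v/IL-33 tumors in 41 cells, of which 3 did. Ctsg, which encodes cathepsin G and lies in the same family locus, had 33 UMIs in 7 CD8 T cells from PD1d/IL-2v/IL-33 tumors on day 12, all 7 with at least 2 UMIs of Gzmc to Gzmg, and 0 UMIs in PD1d/IL-2v and PD1d/IL-33. Gzmn had 8 UMIs in 5 CD8 T cells there, all 5 likewise.

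**Figure D5:**
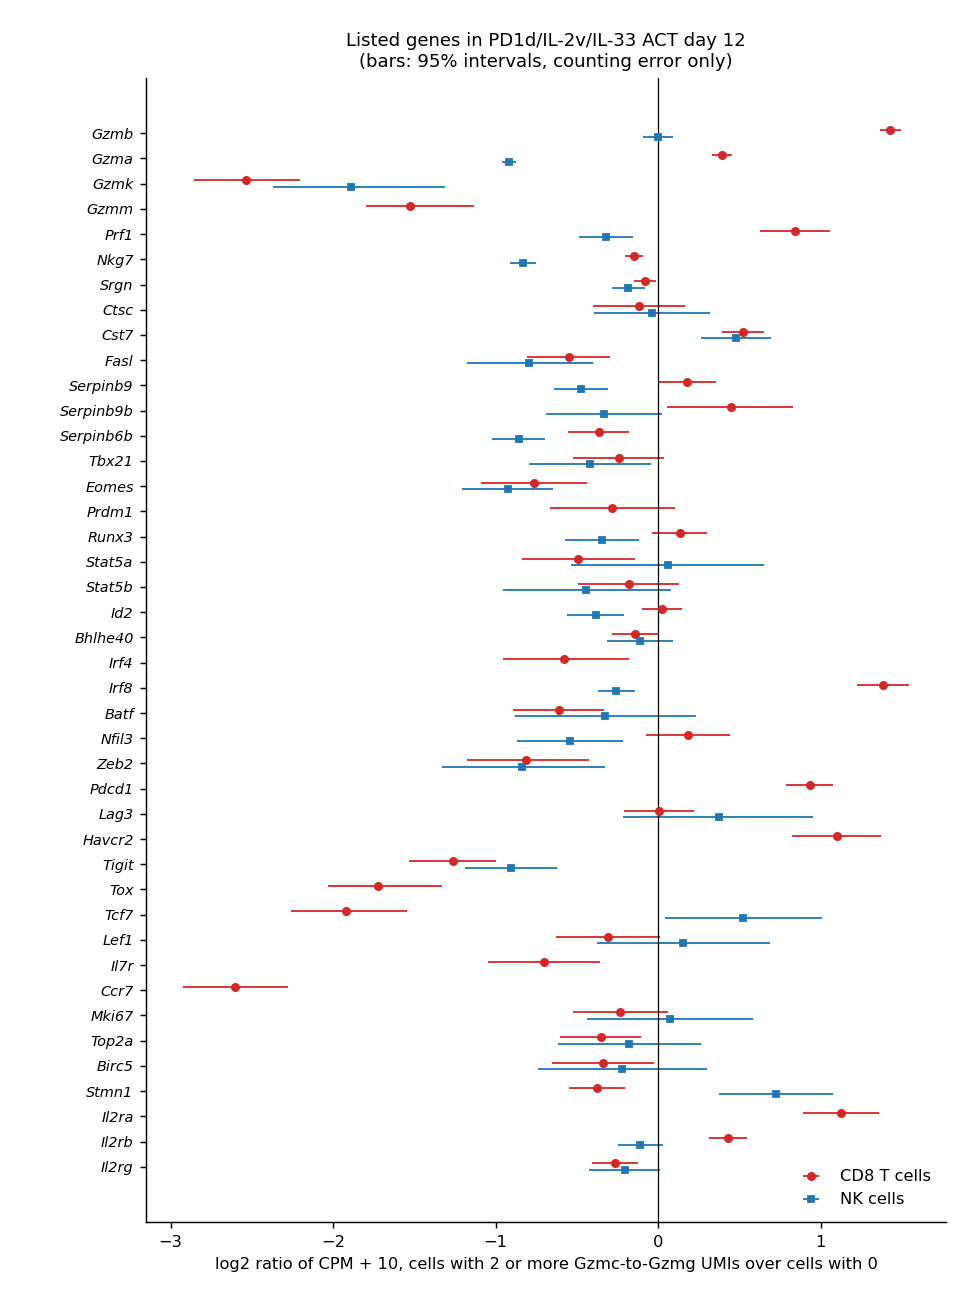
Log2 ratios of listed genes between cells with at least 2 and cells with 0 UMIs of Gzmc to Gzmg at day 12 in PD1d/IL-2v/IL-33 tumors, in CD8 T cells (red) and NK cells (blue), with bars for the 95% counting interval. Gzmk was at -2.53 and -1.89, Irf8 at 1.38 in CD8 T cells and -0.26 in NK cells.

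The granule partners were compared between conditions as a list. Of 13 listed genes 12 were compared in CD8 T cells from PD1d/IL-2v/IL-33 over PD1d/IL-2v tumors. Of these 0 were higher and 2 lower (background 1.13% higher and 1.01% lower), so that the count of higher genes was near the background. Their median was -0.11, against -0.10 for all genes. The lower ones were Gzmm (-1.81), a granzyme of NK cells and innate-like T cells, and Serpinb9b (-1.02), a granzyme inhibitor. Prf1 gave -0.61, with 97.5 against 154 CPM, and Gzma gave 0.29. Over PD1d/IL-33 tumors 0 of 12 were higher and 1 was lower (background 1.34% higher and 0.524% lower), Gzmk at -2.08 with 114 against 516 CPM. In NK cells over PD1d/IL-2v tumors 0 of 11 were higher and 1 was lower (background 1.4% higher and 2.26% lower), with a median of -0.42.

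Of the 13 transcription factors listed, among which Tox was not counted, 0 passed the threshold in CD8 T cells over PD1d/IL-2v tumors (median 0.09; background 1.13% higher and 1.01% lower). Over PD1d/IL-33 tumors Irf8 (1.25) was higher and Eomes (-1.24) lower (background 1.34% higher and 0.524% lower). Il2ra, from the list of cytokine receptors, gave 2.03 in the latter comparison. Tox, listed with the inhibitory receptors, was lower in both, at -1.03 and -2.26.

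NK markers were also found inside the CD8 T gate. A UMI of Ncr1, Klrb1c, Klre1, Klra8 or Tyrobp, a split chosen after the values were seen, was present in 42.5% of CD8 T cells at day 12 in PD1d/IL-2v/IL-33 tumors, 56.6% in PD1d/IL-2v and 30.5% in PD1d/IL-33. These cells held 67.0%, 97.2% and 33.3% of the UMIs of Gzmc to Gzmg. In PD1d/IL-2v tumors the sum was 993 CPM with and 47.2 CPM without an NK marker, and in PD1d/IL-2v/IL-33 tumors 3323 and 1643 CPM. Gzmb was at 979 and 321 CPM in the former and at 1375 and 1045 CPM in the latter. Cells with a marker were deeper, with median UMIs of 9042 against 7622 and 9555 against 7250.5. Klre1 was the most often found of the markers. Among cells with 0 UMIs of Gzmc to Gzmg it was in 46.4% in PD1d/IL-2v tumors and 27.7% in PD1d/IL-2v/IL-33 tumors on day 12. Ncr1 was in 3.44% and 0.963% of these. At day 12 in PD1d/IL-2v/IL-33 tumors a marker was found in 64.9% of cells with at least 2 UMIs of Gzmc to Gzmg and 37.6% of those with 0. After thinning these shares were 23.1% and 18.5%, and at day 5 they were 9.52% and 14.6%. In PD1d/IL-2v tumors they were 85.7% and 52.8%, and the difference stayed after thinning, at 65.7% and 27.3%. Untransduced tumors at day 5 gave 22.7% and 15.5% after thinning.

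Without the CD8 T cells that held an NK marker, the log2 ratio for PD1d/IL-2v/IL-33 over PD1d/IL-2v tumors was 4.85 for the sum and 1.67 for Gzmb. Over PD1d/IL-33 tumors it was 6.37 and 0.52. For PD1d/IL-2v/IL-33 tumors on day 12, Cd8b1 was at 476 CPM in CD8 T cells with at least 2 UMIs of Gzmc to Gzmg and at 683 CPM in those with 0, and Cd3e at 615 and 772 CPM. Fcer1g, a signalling chain of NK cell and Fc receptors, was at 644 and 110 CPM. Whether these are T cells with NK genes or droplets of a T cell and an NK cell was not tested.

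The genes most like the sum of Gzmc to Gzmg over the 731 CD8 T cells, among 3676 genes, were Ifitm2 (Pearson's r 0.61), Ifitm1 (0.53), Ifitm3 (0.46), Mt1 (0.46) and AA467197 (0.45), while the number of UMIs per cell gave 0.38. Over 31 pools of at least 50 cells of 1 gate and library, among 8175 genes, they were Kit (0.81), Klra5, Rras2, Nedd4 and Sult2b1 (each 0.76), and Gzmb gave 0.54. Gzmc gave 0.45–0.57 with Gzmd to Gzmg over these pools, and Gzmd to Gzmg gave 0.82–0.98 with one another. The pools of 1 library share their depth and preparation.

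Taking all libraries and cells passing the filter, CD8 T cells held 40.5% of the Gzmb UMIs, 30.5% of Gzmc, 72.0% of Gzmf and 64.1% of Gzmg. NK cells held 35.9%, 44.9%, 15.6% and 15.6%, and Tregs 6.4% of Gzmb. The gates differed in size, with 39573667 UMIs of all genes in CD8 T cells, 13998181 in NK cells and 4199517 in Tregs. These shares therefore follow gate size as well as level and are not enrichments.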

How the data were processed

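Single-cell RNA-seq of sorted CD45+ tumor cells was deposited by the authors as 1 matrix of raw UMI counts, made with Cell Ranger 2.2.0 against GRCm38 per the submitters' processing notes. Whether the aggregation subsampled reads is not given in the sources used here, and strand and multi-mapping settings are not stated. Libraries were taken from barcode suffixes in the order of the deposited aggregation table.

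Cells with 500–6000 genes, 2000–40000 UMIs, 5–60% ribosomal and under 10% mitochondrial UMIs were kept, as in the study's methods. Gates used raw UMIs: CD8 T, CD3 and Cd8a or Cd8b1 without Cd4 and Foxp3; CD4 T and Treg, CD3 with Cd4 or Foxp3 and without Cd8; NK, at least 2 UMIs of Ncr1 and Klrb1c without CD3; DC, Flt3 with MHC class II, Siglech, or Fscn1 with Ccr7. UMIs were summed per gate and library and scaled to CPM, with exact Poisson intervals, Clopper-Pearson intervals for shares and exact conditional intervals for ratios at 95%. Intervals cover counting error only. With 1 library per condition no test was run. Differences were called at a log2 ratio of 1 after adding 10 CPM, for genes with at least 50 UMIs in both libraries together, and a library at 0 was given 3 counts as its floor. The bounds from this floor take UMIs as independent, although few cells held most UMIs of Gzmc to Gzmg. Cells were thinned to 2000 UMIs with seed 1. Named genes were the 6 members, lists of locus neighbours, granule partners, factors, inhibitory receptors, naive or memory, cycling and cytokine receptor genes, and the 5 genes with the highest r. Members and lists were chosen with earlier results of these data known. The limit of 100 UMIs, the NK marker split and the split at 2 UMIs were chosen after the data were seen.

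Promoter and gene positions were read from RefSeq tables of GRCm38.p6. The interval code was tested on simulated data. Scripts ran in Python 3.11.15 (scipy 1.17.1 for intervals, pandas 2.3.3, numpy 2.4.6, figures in matplotlib 3.10.9), and edgeR 4.0.16 in R 4.3.3 gave TMM factors only. Alternatives covered cell filters, gates, removal of the deepest cells, shared barcodes, cell weights, depth, cycling, pseudocount, low counts and scaling. A gene of the naive or memory list is not reported here.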

Additional observations from a re-analysis of the deposited data

Results flagged for a closer look

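In PD1d/IL-2v/IL-33 over PD1d/IL-2v ACT at day 12, Gzmc and the sum of Gzmc to Gzmg were lower in T cells without Cd4 or Cd8 UMIs. Both were higher in CD8 T cells and NK cells. Gzmd, Gzme and Gzmf did not go the way of Gzmc in the T cells without Cd4 or Cd8 UMIs, with 46, 38 and 96 UMIs against 0 each in PD1d/IL-2v ACT. With 1 library per condition the difference between cell types was not tested. The log2 ratio of Gzmc was 1.22 in CD8 T cells and -2.26 in these T cells, a difference of 3.48. For the sum of Gzmc to Gzmg it was 1.94 against -1.28, a difference of 3.22, and 1.45 in NK cells against -1.28, a difference of 2.73. In PD1d/IL-2v ACT 1 of the T cells without Cd4 or Cd8 UMIs held 455 UMIs, 50.7% of the sum there. The sum without that cell was 381 CPM, against 762 CPM with it and 309 CPM in PD1d/IL-2v/IL-33 ACT.

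Cells that met no gate also held the genes, above the level in non-treated tumors. Gzmb was there at 521 CPM in untransduced day 5, 534 CPM in PD1d/IL-2v, 293 CPM in PD1d/IL-33, and 715 and 610 CPM at day 5 and day 12 of PD1d/IL-2v/IL-33 ACT. The sum of Gzmc to Gzmg was 2273 CPM at day 12 of PD1d/IL-2v/IL-33 ACT, with 52.0% of it in 1 cell. Of the 47 ungated cells with at least 10 UMIs of Gzmc to Gzmg, 28 held both a CD3 and an NK gene UMI and 14 held no CD3.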

How the results depend on the processing

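No paired analysis was possible because each condition and day had 1 library. Of 73 alternatives to the 6 day 12 log2 ratios, 72 kept the sign and 30 lay inside the 95% interval of the reported value. Of 55 alternatives to the 12 counts of members past the threshold (a minimum of 10 UMIs, 1 CPM added, the 12000 UMI filter, no deepest 5%, and in CD8 T cells no NK marker cells), 43 were within 1.5 times. The other counts were, in CD8 T cells, 3 in place of 5 over PD1d/IL-2v ACT without the deepest 5%, 1 in place of 4 for PD1d/IL-33 over PD1d/IL-2v ACT and 2 in place of 1 for PD1d/IL-2v/IL-33 over untransduced ACT at day 5 without NK marker cells, and 2, 2 and 1 in place of 4 for untransduced over non-treated tumors with the 12000 UMI filter, without the deepest 5% and without NK marker cells. In NK cells the 12000 UMI filter gave 1 in place of 4 over PD1d/IL-2v ACT, 2 in place of 5 over PD1d/IL-33 ACT, 1 in place of 2 for PD1d/IL-33 over PD1d/IL-2v ACT (also without the deepest 5%), 2 in place of 5 from day 5 to day 12 and 1 in place of 5 from day 12 to day 26. In all of these but the first, fewer members reached 50 UMIs than in the reported comparison. The causes of the shifts were not tested. Removal of the deepest 5% leaves out the cells richest in UMIs. The filter of 12000 UMIs leaves such cells out too, but it also changes the limits on genes and on ribosomal and mitochondrial UMIs.

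For the sum of Gzmc to Gzmg in CD8 T cells over PD1d/IL-2v ACT (1.94), the values were 2.21 with no cell filter, 1.2 without the 5% of cells with most UMIs, 2.07 without shared barcodes, 1.75 as a mean of single-cell CPM, 1.72 thinned, 1.68 without cycling cells, 2.04 with TMM and 4.85 without NK marker cells. Over PD1d/IL-33 ACT (6.99) they were 5.45 with the 12000 UMI filter, 5.66 without the deepest 5%, 6.22 as a mean, 6.19 thinned, 7.87 with 1 CPM added and 6.37 without NK marker cells.

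For Gzmb in CD8 T cells over PD1d/IL-2v ACT (0.72) they were 0.89 with the 12000 UMI filter, 0.87 with none, 0.86 without the deepest 5%, 0.60 thinned, 0.85 without cycling cells, 0.82 with TMM and 1.67 without NK marker cells. Over PD1d/IL-33 ACT (0.65) they were 0.30, 0.88, 0.48, 0.49, 0.57, 0.76 and 0.52 in the same order, and 0.45 as a mean.

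In NK cells over PD1d/IL-2v ACT the sum (1.45) became 0.25 with the 12000 UMI filter, 1.67 and 1.85 with the stricter and looser gate, 0.81 without the deepest 5%, 1.25 as a mean, 1.21 thinned, 1.99 without cycling cells, 1.70 with TMM and 1.31 without the cell with most UMIs of these genes. Gzmb (-0.22) became -0.47 with the 12000 UMI filter, -0.30 with the looser gate, -0.40 as a mean, -0.33 thinned and 0.033 with TMM. The alternatives without NK marker cells, without the highest cell, and to the counts by cell filter or depth were added after the data were seen.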
